A study of Mus musculus with 6 samples.

Results

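The genes described here number 35. They are targets of the transcription factor p53, the p53 gene itself, and genes that mark cellular senescence. All were read in mouse embryonic fibroblasts with and without the Stc1 gene. A locus belonged to the set if its gene name in the deposited files was one of the 35 symbols. All 35 were found, among 39495 loci in the files, and all 35 passed the filter on low counts, among 15673 tested loci. Of the 35 loci, 32 carry the name of the member alone. Bax shares its locus with Ftl1, Glb1 with Tmppe and Ak1 with Eng, and the members of such a pair cannot be told apart in these files.

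The study compared 3 wild-type libraries (STC1+/+) with 3 knockout libraries (STC1-/-) of embryonic fibroblasts, all on a C57BL/6 background and grown in serum-containing medium. The product of Stc1 is the secreted hormone stanniocalcin-1. The labels name no other allele or agent. Polyadenylated RNA was sequenced from each library. Embryo age, the disrupted part of Stc1 and how many embryos lie behind each genotype are not stated in the sources used here. The p-values therefore measure the spread between these libraries, which may be partly technical.

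The deposited totals ran from 21882092 estimated fragments (knockout replicate 1) to 71488701 (wild-type replicate 1). Stc1 itself had 2245, 291 and 368 fragments in wild-type replicates 1 to 3 and 6, 0 and 0 in knockout replicates 1 to 3. Levels are given as CPM, fragments scaled by each library's effective size, unless FPKM is named. FPKM also divides by transcript length, so it is used where the levels of different genes are compared. Of 11 fibroblast markers, 10 were tested, and all 10 were present in every library, the lowest value being 6.09 CPM for Lum in wild-type replicate 1. edgeR called 0 of them, 8 had negative fold changes (median -0.86), and 4 (Col1a1, Col1a2, Vim and S100a4) were lower in every knockout than in every wild-type library, against 5.44% of all loci. Their sum ran from 5719 CPM in knockout replicate 1 to 31501 CPM in wild-type replicate 2, and their part in the members' values was not tested. The libraries also held different amounts of macrophage RNA. The summed level of 16 macrophage markers reached 13183 CPM in wild-type replicate 3, against 1758 in knockout replicate 1, 1711 in wild-type replicate 2 and 405 to 552 CPM in the remaining libraries. Of the defining markers, C1qa, C1qb, C1qc and Csf1r, none was at 0 in any library, and C1qa ran from 0.188 CPM in knockout replicate 2 to 809.7 CPM in wild-type replicate 3. Markers of endothelium, epithelium and skeletal muscle summed to 98.3 CPM or less in every library. In bulk RNA, fewer cells of a type and less RNA per cell cannot be told apart.

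p53 is held at a low level by Mdm2, a ubiquitin ligase that marks it for destruction and is itself encoded by a p53 target, which closes a feedback loop. When DNA damage or oncogenic signalling releases p53 from Mdm2, it binds a pair of decameric half-sites near its target genes and turns on genes for cell cycle arrest, DNA repair, metabolism and cell death. Embryonic fibroblasts in culture are a standard model of senescence: with passage they accumulate the products of the Cdkn2a locus, of which p19Arf blocks Mdm2 and p16Ink4a blocks the cyclin D kinases, and they cease to divide.

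Because most members are known as p53 targets, the promoter windows of the set were searched for the p53 half-site consensus. This is a 10-base pattern that reads the same on both strands. RefSeq (GRCm38.p6, the same assembly as mm10) gave windows of 250 bases before to 50 bases after a start site for 27 of the 35 members, 39 windows in all, since some genes have several. A match stood in 11 of the 39 windows (28.2%), in 10 genes, against 2745 of 32851 windows of all genes (8.36%). The Aen half-site is counted in both windows of that gene. Most members were chosen as known p53 targets, so these shares describe the set and test nothing. Each matched site is printed with 10 bases on either side, 5′ to 3′ on the strand of the gene, with the half-site in capitals. The capitals are the letters that matched the consensus. Single half-sites were searched, whereas p53 binds a pair, so a match alone does not mark a gene as a p53 target.

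Cdkn1a, first site, chr17:29090896-29090925: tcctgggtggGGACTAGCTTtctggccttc
Cdkn1a, second site, chr17:29090918-29090947: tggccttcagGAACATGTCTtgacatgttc
Mdm2, chr10:117710925-117710954: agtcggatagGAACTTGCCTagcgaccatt
Ccng1, chr11:40755452-40755481: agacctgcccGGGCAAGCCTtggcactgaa
Trp53, chr11:69580274-69580303: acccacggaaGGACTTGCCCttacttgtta
Gadd45a, chr6:67037428-67037457: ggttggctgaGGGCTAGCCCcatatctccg
Gtse1, chr15:85859945-85859974: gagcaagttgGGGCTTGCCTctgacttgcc
Aen, chr7:78895927-78895956: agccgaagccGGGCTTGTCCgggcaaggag
Bax, chr7:45467080-45467109: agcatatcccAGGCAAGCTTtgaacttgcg
Ei24, chr9:36797325-36797354: cgtgcggcccGGGCATGCCCagtgtgggcg
Sesn1, chr10:41887256-41887285: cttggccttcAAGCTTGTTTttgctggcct

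The first base of the half-site lay 73 and 51 bases before a start site in Cdkn1a, 186 in Mdm2, 185 in Ccng1, 75 in Trp53, 40 in Gadd45a, 201 in Bax, 10 in Ei24 and 173 in Sesn1. In Gtse1 and Aen it lay 9 and 10 bases after a start site, and the Aen half-site lay 121 bases before another start site of that gene. Cdkn1a, Sesn1 and Gtse1 each have a further window, at another start site, that holds no match. These matches describe letters in the reference and do not show binding. The 10 genes with a match hold members at either end of the expression results that follow, from Mdm2 to Sesn1.

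Across the set, the log2 fold change (knockout minus wild type, as fitted) was positive in 30 of 35 members and negative in 5, with a median of 0.40. Over all 15673 tested loci 6961 were positive (44.4%), with a median of -0.05. No member passed. With edgeR's quasi-likelihood model 0 of 35 had an adjusted p under 0.05, as did 0% of all loci, and adjusted p ran from 0.763 to 0.993 over the members. At an unadjusted p under 0.05, edgeR gave 0 members higher and 0 lower, against 1.60% and 2.27% of all loci. DESeq2 also called 0 of 35 at an adjusted p under 0.05 (0.320% of the 19059 loci to which it gave one). At an unadjusted p under 0.05 it gave 1 member higher, Pmaip1, and 1 lower, Sesn1 (1.94% and 3.26% of the 23509 loci with a DESeq2 p). limma-voom called 0 at an adjusted p under 0.05 (0% of all loci), and at an unadjusted p under 0.05 it gave Pmaip1 as higher and 0 members as lower (2.27% and 1.14% of all loci). limma on log2(FPKM + 1) and log2(FPKM + 0.1) called 0 members (0% and 0.00638% of all loci).

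In none of the 35 members did the 3 knockout libraries lie wholly above or wholly below the 3 wild-type libraries. Among all tested loci, 10.6% had groups that did not overlap, 5.18% with the knockout above and 5.44% with it below. The overlap had the same shape in most members. Wild-type replicate 2 or 3 held the lowest level in 32 of 35 members (53.6% of all loci), wild-type replicate 3 in 19 and wild-type replicate 2 in 13. Wild-type replicate 1 exceeded both other wild-type libraries in 27 of 35 members (30.7% of all loci), and lay within the range of the knockout libraries in 29 (53.3% of all loci). Knockout replicate 3 held the highest level in 23 of 35 (15.0% of all loci). The SD was larger in wild type than in knockout for 25 members, and the larger of the SDs exceeded the difference of the means in 24.

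**Figure D1:**
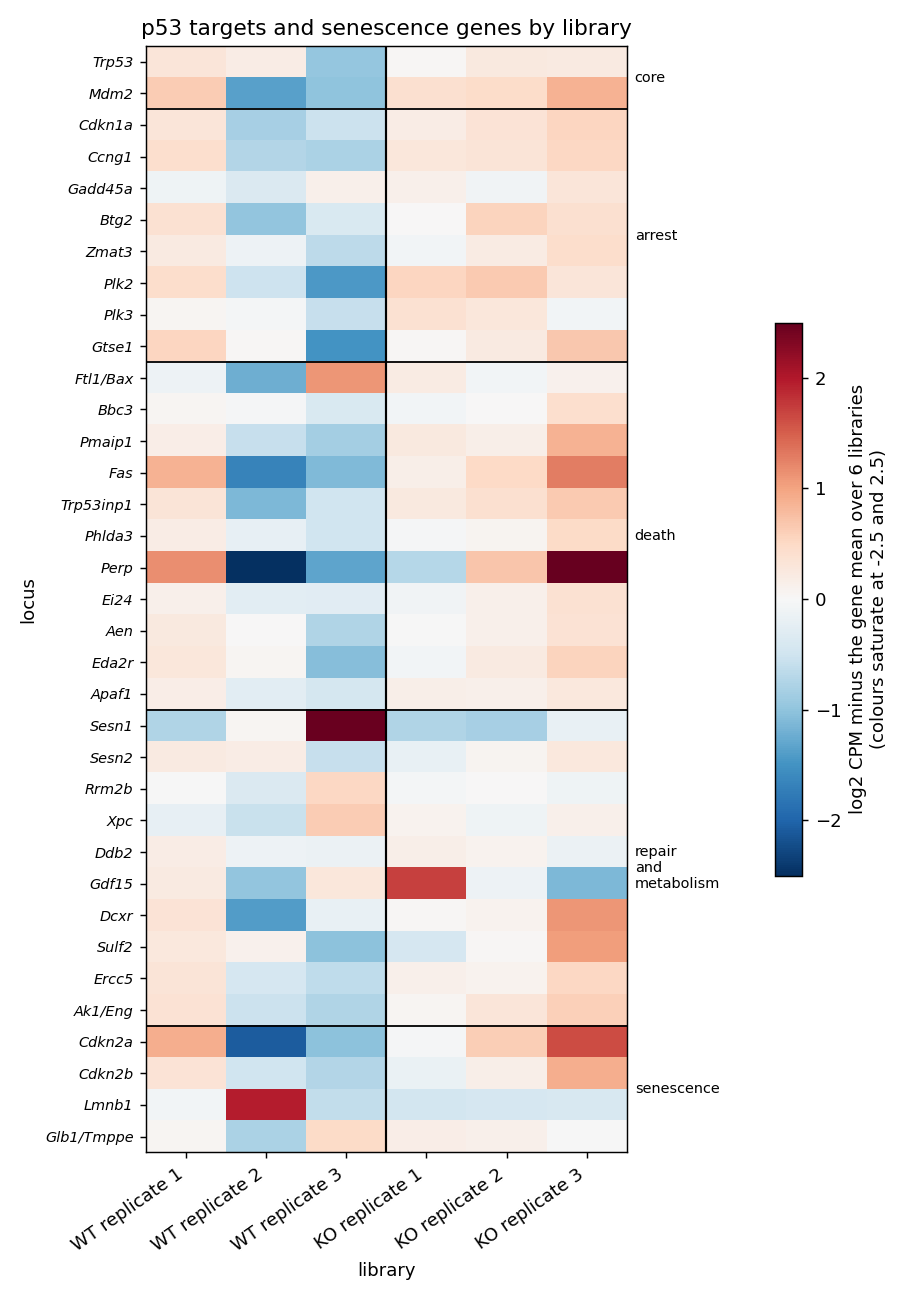
Each row is a locus and each column a library, and the colour is the log2 CPM minus the mean of that gene over the 6 libraries, with rows grouped by role. Wild-type replicates 2 and 3 are blue for most rows and wild-type replicate 1 is coloured like the knockout libraries. Sesn1 in wild-type replicate 3 and Lmnb1 in wild-type replicate 2 go the other way.

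Per unit of length the set spans a wide range of levels. Leaving aside the 3 shared loci, the highest mean FPKM over the 6 libraries were those of Cdkn1a (318), Ccng1 (221), Plk2 (170.3), Cdkn2a (165) and Mdm2 (161). The lowest were those of Ddb2 (2.25), Rrm2b (3.39), Gdf15 (4.38), Xpc (4.99) and Bbc3 (6.60). Repair genes and the death gene Bbc3 were thus near the bottom of the set.

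The p53 gene came first. Trp53 stood at 113, 104 and 46.5 CPM in wild-type replicates 1 to 3 and at 92.7, 108 and 106 CPM in knockout replicates 1 to 3. Wild-type replicate 3 was the only low library, and the other 5 lay within 92.7 to 113 CPM. Fitted over all libraries, the difference was 0.22 on the log2 scale (standard error 0.34, edgeR adjusted p = 0.844), and it was -0.08 without wild-type replicate 3. The files mark Trp53 as FAIL in all 6 libraries. The locus (chr11:69578538-69592054, plus strand) overlaps the antisense gene Wrap53, whose locus is drawn to the same end, 69592054, and which carries the mark in all 6 libraries too. The fragment estimates of the pair are fractions whose sum is whole in every library, and Wrap53 took 13.1% to 21.9% of that sum, with the highest share in wild-type replicate 3.

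Mdm2, the ligase that destroys p53 and is induced by it, stood at 620.0, 156 and 199.8 CPM in wild-type and 532, 550.2 and 731 CPM in knockout libraries. Wild-type replicates 2 and 3 were low, and wild-type replicate 1 lay between the second and the highest knockout library. Group levels were 325 ± 256 and 604 ± 109.7 CPM (SD, n = 3 each). The log2 fold change was 0.89 (standard error 0.55, edgeR adjusted p = 0.763). Between libraries Mdm2 spanned 4.68-fold, while Trp53 spanned 2.42-fold.

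The arrest group held 8 members, all with positive fold changes and a median of 0.49. Cdkn1a encodes p21, the inhibitor of cyclin-dependent kinases through which p53 halts the cycle. It stood at 773, 353 and 435 CPM in wild-type and 711, 798 and 914 CPM in knockout libraries, or 520.1 ± 223 against 808 ± 102 CPM (SD, n = 3 each). Its log2 fold change was 0.64 (standard error 0.33, edgeR adjusted p = 0.763). Wild-type replicate 1 exceeded knockout replicate 1, so the groups overlapped. Ccng1 encodes cyclin G1, a feedback partner of Mdm2. It stood at 1174, 532 and 508 CPM in wild-type and 1070.2, 1101 and 1265 CPM in knockout libraries. There too wild-type replicate 1 exceeded knockout replicate 1, and wild-type replicates 2 and 3 were low.

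Plk2, a polo-like kinase of the stress response, stood at 694, 359 and 191 CPM in wild-type and 749, 812 and 637 CPM in knockout libraries. Its log2 fold change of 0.82 was near that of Pmaip1, and wild-type replicate 3 was lowest. Plk3, a related kinase, differed less, at 29.8, 27.9 and 19.3 CPM against 37.6, 35.1 and 27.4 CPM. Btg2, an antiproliferative regulator of mRNA decay, stood at 145, 56.1 and 85.1 CPM in wild-type and 112, 163 and 147 CPM in knockout libraries. Gadd45a, a stress sensor that binds PCNA, was among the flattest members, at 42.5, 35.5 and 50.1 CPM against 50.2, 43.3 and 56.4 CPM. Zmat3, an RNA-binding splicing regulator, stood at 165, 129.6 and 90.0 CPM against 135, 163 and 192 CPM. Gtse1, a protein of G2 and mitosis that moves p53 out of the nucleus, stood at 93.5, 65.7 and 23.0 CPM against 66.0, 75.4 and 103 CPM. In Gtse1 wild-type replicate 3 stood apart on the low side, and knockout replicates 1 and 2 lay between wild-type replicates 1 and 2.

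**Figure D2:**
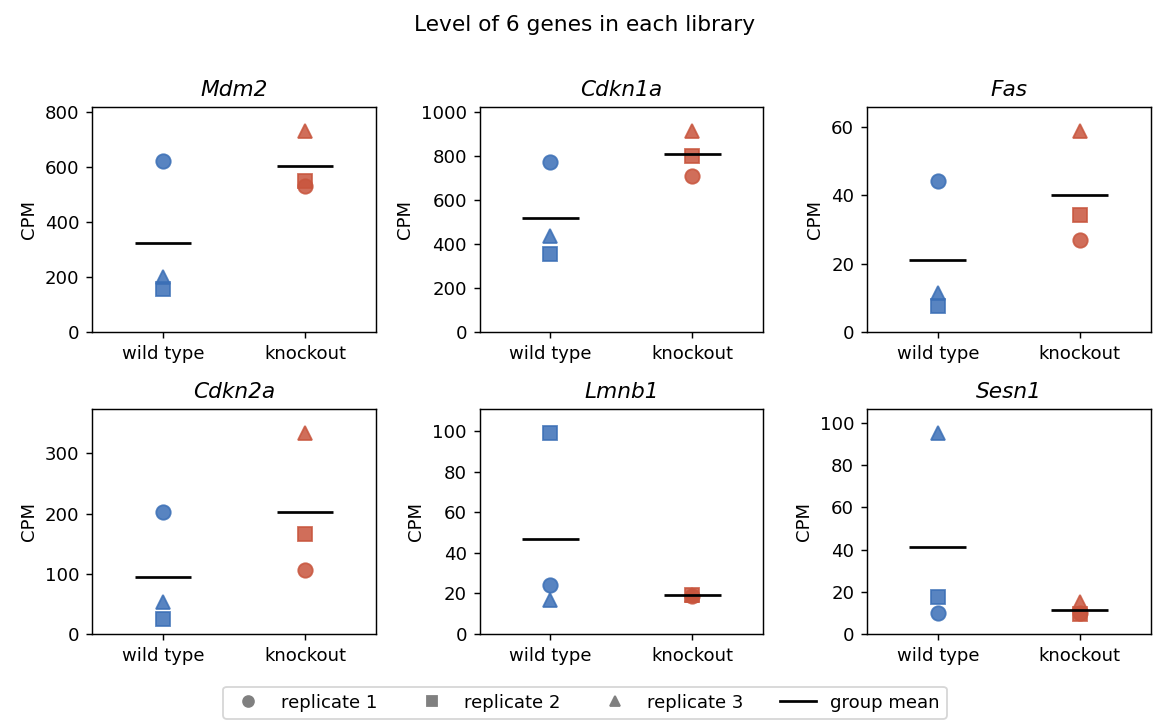
Level of Mdm2, Cdkn1a, Fas, Cdkn2a, Lmnb1 and Sesn1 in CPM on axes that start at 0, with 1 point per library, symbols for the replicate and a line at the mean of each genotype. In the first 4 genes wild-type replicate 1 lies among the knockout libraries and wild-type replicates 2 and 3 lie below them; the wild-type mean of Lmnb1 rests on replicate 2 (99.2 CPM) and that of Sesn1 on replicate 3 (95.3 CPM).

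Among the 11 members of the death group 10 had positive fold changes, with a median of 0.34. Perp, a desmosomal membrane protein that takes part in p53-dependent apoptosis, had the widest range of all 35, 53.8-fold between libraries. It stood at 31.2, 2.01 and 5.53 CPM in wild-type and 8.41, 22.5 and 108 CPM in knockout libraries. Its log2 fold change of 1.84, the highest of the set, had a standard error of 1.30 (edgeR adjusted p = 0.763) and was 0.26 without knockout replicate 3. Fas, the death receptor, stood at 44.1, 7.61 and 11.3 CPM in wild-type and 27.0, 34.2 and 58.9 CPM in knockout libraries. Here wild-type replicate 1 was second only to knockout replicate 3, and the log2 fold change was 0.93 (standard error 0.72, edgeR adjusted p = 0.763).

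Pmaip1 encodes NOXA, a BH3-only protein that neutralises MCL1, and had the lowest p of the set. It stood at 96.3, 57.7 and 47.6 CPM in wild-type and 102, 96.0 and 158 CPM in knockout libraries. Only wild-type replicate 1, at 96.3 against 96.0 CPM in knockout replicate 2, kept the groups from separating. The log2 fold change was 0.82 (standard error 0.34, edgeR's quasi-likelihood test, unadjusted p = 0.0501, adjusted p = 0.763). Bbc3, which encodes the related BH3-only protein PUMA, was low and flat, at 11.2, 10.7 and 8.38 CPM against 10.4, 11.0 and 14.6 CPM.

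Trp53inp1, a nuclear protein that promotes p53-dependent death and autophagy, stood at 188, 69.1 and 107 CPM in wild-type and 180.0, 199 and 239 CPM in knockout libraries. Wild-type replicate 1 lay above knockout replicate 1 there. Apaf1, the scaffold of the apoptosome, stood at 90.6, 66.8 and 59.3 CPM against 89.6, 87.4 and 96.8 CPM. Phlda3, an inhibitor of AKT, stood at 190.0, 146 and 119 CPM against 164, 176 and 235 CPM. Eda2r, the receptor for ectodysplasin A2, stood at 72.9, 62.1 and 28.6 CPM against 56.9, 70.1 and 88.5 CPM. In these genes the lowest library was wild-type replicate 2 or 3, and the highest was knockout replicate 3. The exonuclease gene Aen stood at 118, 100.1 and 59.2 CPM against 97.9, 108 and 128 CPM. Ei24, an endoplasmic reticulum protein, stood at 159, 119.9 and 119 CPM against 137, 157 and 188 CPM.

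The locus named for Bax, the pore-forming executioner of mitochondrial death, could not be read as Bax. It also holds Ftl1, the ferritin light chain, and its 2122, 989 and 4982 CPM in wild-type and 2679.9, 2215 and 2502 CPM in knockout libraries cover both and a gene model named AC151602.1. It was highest in wild-type replicate 3, the library with the most macrophage markers (13183 CPM in sum), and the part of these cells in the value was not tested. The log2 fold change was -0.13 (standard error 0.57, edgeR adjusted p = 0.950), and it was 0.66 without wild-type replicate 3.

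The repair and metabolism group was the most mixed, with 7 of 10 positive and a median of 0.26. Sesn1, a sestrin that restrains mTORC1 and is a p53 target, had the most negative value of the set. It stood at 10.1, 17.7 and 95.3 CPM in wild-type and 10.1, 9.68 and 15.0 CPM in knockout libraries. A single library, wild-type replicate 3, carried the difference, and without it the log2 fold change of -1.83 (standard error 0.86, edgeR adjusted p = 0.763) was -0.27. Wild-type replicate 3 also held the most macrophage markers. Wild-type replicate 2, with the second highest Sesn1, held 1711 CPM of them. Knockout replicate 1 held 1758 CPM of them, with Sesn1 at 10.1 CPM. The part of macrophages in the Sesn1 value was not tested. Sesn2, a sestrin that answers to ATF4 as well as to p53, did not share the pattern, at 94.7, 92.9 and 54.8 CPM against 71.8, 85.9 and 98.1 CPM.

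Xpc, the damage sensor of nucleotide excision repair, stood at 18.3, 14.3 and 32.7 CPM against 22.4, 19.5 and 22.9 CPM, with a log2 fold change of -0.01 and a standard error of 0.33 (edgeR adjusted p = 0.993). Rrm2b, the p53-inducible subunit of ribonucleotide reductase, stood at 14.2, 11.1 and 20.6 CPM against 13.9, 14.4 and 13.4 CPM, with a log2 fold change of -0.14 and a standard error of 0.26 (edgeR adjusted p = 0.879). Wild-type replicate 3 was the highest library for both, as it was for Sesn1 and the Bax locus. Ddb2, which finds ultraviolet lesions, had the narrowest range of the set, 1.26-fold, at 5.55, 4.50 and 4.43 CPM against 5.40, 5.20 and 4.39 CPM. Ercc5, the endonuclease XPG, stood at 58.7, 35.5 and 30.4 CPM against 51.5, 49.9 and 67.8 CPM.

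Dcxr, a dicarbonyl and xylulose reductase, stood at 66.9, 20.2 and 46.7 CPM against 54.2, 56.4 and 114 CPM. Sulf2, an enzyme that removes sulphate from heparan chains, stood at 240.3, 215 and 98.5 CPM against 151, 206 and 415 CPM. Knockout replicate 3 was highest in both by a clear margin, and without it the Sulf2 log2 fold change was -0.05 in place of 0.48. The locus of adenylate kinase 1, Ak1, includes Eng, the endothelial and mesenchymal co-receptor of TGF-beta, and stood at 331, 177 and 152 CPM against 266, 315 and 386 CPM. Gdf15, a secreted stress hormone, was low and erratic, at 6.34, 2.76 and 6.66 CPM against 17.8, 5.01 and 2.51 CPM. The knockout libraries included both its highest and its lowest value, and without knockout replicate 1 the log2 fold change was -0.48 in place of 0.67.

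The 4 senescence genes included the second widest range of the set. Cdkn2a encodes both p16Ink4a and p19Arf from overlapping reading frames with separate first exons, and the files give 1 value for the locus (chr4:89274473-89294653, minus strand). It stood at 203, 25.6 and 53.5 CPM in wild-type and 106, 166 and 334 CPM in knockout libraries, a 13.1-fold range. Wild-type replicate 1 lay above knockout replicates 1 and 2. Group levels were 94.0 ± 95.4 and 202 ± 118 CPM (SD, n = 3 each), with a log2 fold change of 1.10 and a standard error of 0.83 (edgeR adjusted p = 0.763). Cdkn2b, the adjacent gene, encodes p15Ink4b and had the same highest library in a narrower range, at 78.4, 43.5 and 36.9 CPM against 54.8, 68.1 and 115 CPM. Its log2 fold change was 0.59 (standard error 0.40, edgeR adjusted p = 0.763).

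Lmnb1, the lamin whose loss marks senescent cells, went in the opposite direction. It stood at 24.4, 99.2 and 16.6 CPM in wild-type and 18.7, 19.2 and 19.3 CPM in knockout libraries. The knockout libraries were nearly equal, and wild-type replicate 2 alone was high. The log2 fold change of -1.29 had a standard error of 0.68 (edgeR adjusted p = 0.763), and it was -0.09 without wild-type replicate 2. Glb1, the lysosomal beta-galactosidase behind the usual stain for senescence, shares its locus with Tmppe. That locus stood at 185, 103 and 248 CPM against 201, 195 and 177 CPM, highest in the library with the most macrophage markers, whose part in the value was not tested.

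**Figure D3:**
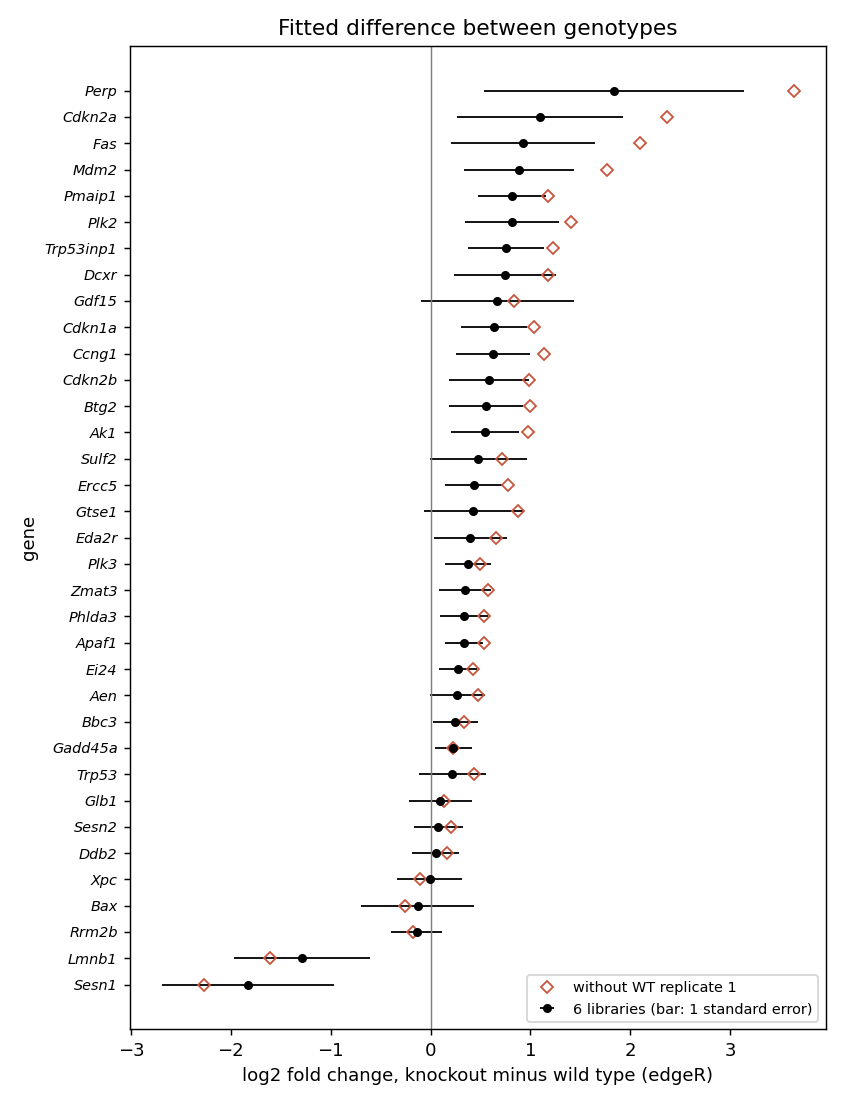
Fitted log2 fold change of knockout minus wild type for the 35 members, sorted, with bars of 1 standard error from edgeR on all 6 libraries and open diamonds for the same fit without wild-type replicate 1. Without that library the values of Perp, Cdkn2a, Fas and Mdm2 move to 3.64, 2.37, 2.10 and 1.77.

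Wild-type replicate 1 weighed most on the members. Without it, edgeR gave 14 of 35 members higher and 1 lower, Sesn1, at an unadjusted p under 0.05, against 10.1% and 8.31% of 15960 loci in that fit. At an adjusted p under 0.05 it called 0 members and 0% of loci. The 14 were Mdm2, Cdkn1a, Ccng1, Btg2, Plk2, Fas, Pmaip1, Trp53inp1, Perp, Apaf1, Cdkn2a, Cdkn2b, Ercc5 and the Ak1 locus. Mdm2 had the lowest p of them (log2 fold change 1.77, standard error 0.24, edgeR adjusted p = 0.116). The median over the members was 0.66 in that fit, and 0.22 without knockout replicate 3. Macrophage markers were most abundant in 3 libraries: knockout replicate 1 and wild-type replicates 2 and 3. With these left out the median over the members was 0.09, with 27 of 35 positive. That fit takes its 1 wild-type library to have the knockout spread. It drops wild-type replicates 2 and 3, which between them were lowest in 32 of 35 members. It keeps wild-type replicate 1, which lay within the knockout range in 29. A smaller median was therefore built into the choice of libraries, and the part of macrophages was not tested.

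The other genes of the pathway were read from lists that hold no member. Of regulators and cofactors of p53, 20 loci were tested and 0 called, 8 positive and 12 negative, with a median of -0.07. Mdm4, the partner of Mdm2, stood at 106, 125 and 84.2 CPM in wild-type and 93.3, 96.1 and 127 CPM in knockout libraries. Atr, the kinase of stalled replication forks, was lower in every knockout library (30.3, 30.6 and 27.4 CPM) than in every wild-type library (33.3, 46.0 and 32.3 CPM), with edgeR adjusted p = 0.763. The checkpoint kinase gene Chek2 was the other regulator with separated groups, at 17.5 to 19.6 CPM in wild-type and 14.4 to 16.8 CPM in knockout libraries. All knockout libraries lay below all wild-type libraries in 5.44% of all loci. The other genes with the lowest p were Ppp1r13b and Trp53bp1, with log2 fold changes of -0.60 and 0.37.

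Of 32 further p53 targets 23 were positive, with a median of 0.34, and 0 were called at an adjusted p under 0.05 by edgeR or by DESeq2. At an unadjusted p under 0.05 edgeR gave 3 higher and 0 lower (1.60% and 2.27% of all loci). In 5 of them every knockout library lay above every wild-type library (5.18% of all loci), namely Tnfrsf10b, Ddit4, Epha2, Abhd4 and Foxo3. Tnfrsf10b, the TRAIL death receptor, stood at 82.9, 53.4 and 43.3 CPM in wild-type and 114, 109 and 118 CPM in knockout libraries. Its log2 fold change was 0.93 (standard error 0.26, edgeR's quasi-likelihood test, unadjusted p = 0.0114, adjusted p = 0.763). Ddit4, an inhibitor of mTORC1, stood at 63.3, 42.6 and 36.8 CPM against 94.7, 67.0 and 85.9 CPM. Epha2, an ephrin receptor, stood at 77.1, 89.8 and 66.6 CPM against 119, 95.6 and 118 CPM.

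A further list held genes of the cell cycle, which p53 is known to lower through p21. Of 29 tested, 27 had negative fold changes, with a median of -0.89, and edgeR called 0 at an adjusted p under 0.05. At an unadjusted p under 0.05, 2 were lower and 0 higher (2.27% and 1.60% of all loci). Wild-type replicate 2 was the highest library in 27 of the 29, as in 27.3% of all loci. The proliferation marker Mki67 stood at 104, 411 and 59.5 CPM in wild-type and 69.8, 71.5 and 43.3 CPM in knockout libraries. Cenpa, the centromeric histone, stood at 18.3, 58.6 and 27.2 CPM against 16.3, 12.9 and 15.5 CPM, and Mcm6, of the replicative helicase, at 89.8, 184 and 88.4 CPM against 67.1, 71.3 and 59.5 CPM. Lmnb1 shared its high library with these genes. Wild-type replicate 3, low for most members, was low for the cell cycle genes as well.

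**Figure D4:**
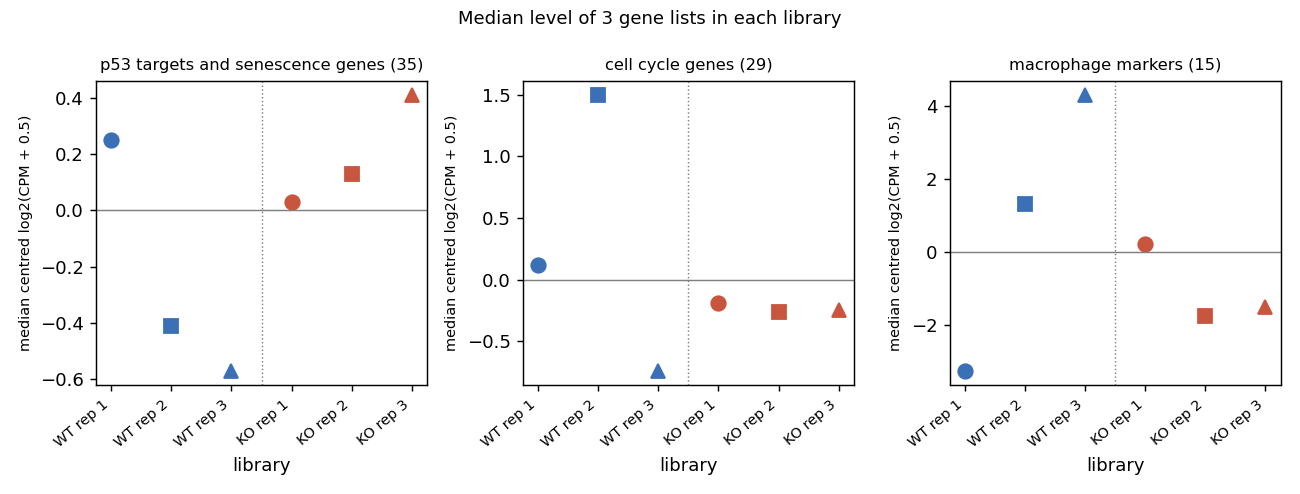
Median over each list of log2(CPM + 0.5) minus the mean of each gene over the 6 libraries, by library, for the 35 members, 29 cell cycle genes and 15 tested macrophage markers, with a separate vertical axis for each panel. The members are at -0.41 and -0.57 in wild-type replicates 2 and 3, where the cell cycle genes are at 1.50 and -0.74 and the macrophage markers at 1.31 and 4.32.

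The 2 low libraries for the members therefore differed from each other in these respects. Wild-type replicate 2 had the highest cell cycle level (1.50 in the units of the plot of list medians) and wild-type replicate 3 the lowest (-0.74) with the highest macrophage level (4.32). Wild-type replicate 1 had the lowest macrophage level (-3.27) and a member level of 0.25, between knockout replicate 2 at 0.13 and knockout replicate 3 at 0.41. The part of cycling cells and of macrophages in the members' values was not tested.

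The INK4 and RB pathway, through which p16Ink4a acts, showed no common direction. Of 21 tested loci 10 were positive and 11 negative, with a median of -0.09, and edgeR called 0. Of these loci 1, Rbl1, the RB relative p107, was lower in every knockout than in every wild-type library, against 5.44% of all loci. It stood at 18.3, 40.9 and 23.4 CPM in wild-type and 16.9, 14.7 and 14.5 CPM in knockout libraries (edgeR adjusted p = 0.763). The kinase inhibitors Cdkn2c and Cdkn1b stood highest in wild-type replicate 2, at 22.3 and 50.0 CPM. Their log2 fold changes were -1.27 and -1.13, opposite in sign to those of Cdkn2a and Cdkn2b. Wild-type replicate 1 was nevertheless the lowest of all libraries for both, at 3.85 and 11.2 CPM.

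In the authors' deposited table of the comparison, rows for 20 of the 35 members were found by name. The log2 fold change there was positive for 19 of the 20 and negative for Lmnb1 (-1.18). No row was found for Sesn1, Bax or Xpc, which had negative values in the edgeR fit. Rrm2b was 0.01 in the authors' table and -0.14 in the edgeR fit. The authors' deposited table gives no member a q-value under 0.05 and 1 member, Perp, a p-value under 0.05 (log2 fold change 1.91, p = 0.0339, q = 1).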

How the data were processed

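Messenger RNA of 3 wild-type and 3 Stc1 knockout fibroblast libraries was analysed. The submitters' processing notes name CASAVA 1.8.2, TopHat2 2.0.6, Cuffdiff 2.0.1 and mm10, without role or order. Per the file headers, the authors deposited for each locus an estimated count of sequenced fragments, an FPKM and a status. The authors' deposited table gives FPKM, log2 fold change, p-value and q-value per genotype; infinite folds carry a placeholder and were not used.

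These deposited estimated counts, of which 24.2% of those above 0 are not whole, were rounded. Loci without a gene name (2667; 0.507% to 0.555% of fragments) and 16 marked HIDATA were left out, which left 36812; loci marked FAIL were kept. The 15673 loci kept by filterByExpr were scaled by TMM and tested with the robust quasi-likelihood model of edgeR 4.0.16 (R 4.3.3), with Benjamini-Hochberg adjusted p under 0.05 as threshold and no covariate. CPM were computed with TMM effective library sizes. The common biological coefficient of variation was 0.467. As alternatives, each library was left out in turn, scaling was by upper quartile or RLE, the filter was dropped or set to 1 CPM in 3 libraries, and other tools were used (limma 3.58.1 on FPKM with a pseudocount of 1 or of 0.1, limma-voom, DESeq2 1.42.0); fits without FAIL loci, without shared loci and without the libraries richest in macrophage markers were added after seeing the data. The script was tested on simulated data.

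Locus coordinates follow the files (mm10). Promoter sites are from RefSeq on GRCm38.p6. The members and lists were chosen with earlier results of these data known. Named genes are all 35 members, with full statistics for Trp53, Mdm2, Cdkn1a, Cdkn2a, Cdkn2b, Lmnb1 and the 5 highest and 5 lowest fold changes, and the 3 genes of lowest p in each pathway list; other genes of those lists were named after their values were seen. Replicate numbers only name libraries, in accession order.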

Additional observations from a re-analysis of the deposited data

How the results depend on the processing

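The count of called members was 0 under every tool, scaling, filter and left-out library tried, and the median log2 fold change of the members ran from 0.38 to 0.42 over the other tools, scalings and filters. With each library left out it ran from 0.22 (without knockout replicate 3) to 0.66 (without wild-type replicate 1), and 28 to 31 members were positive. Over all loci, DESeq2 called 61 of the 19059 to which it gave an adjusted p. Of 15673 loci, limma on log2(FPKM + 0.1) called 1, where edgeR called 0. Without the 3 shared loci the median was 0.41, and without FAIL loci 0.39. Of 35 members, 26 kept their sign with each library left out in turn. Signs turned for Bax with limma-voom (0.18) and limma on log2(FPKM + 1) and log2(FPKM + 0.1) (0.20 in both), and for Xpc in the same fits (0.07, 0.06 and 0.08) and with upper quartile scaling (0.04); the cause was not tested. With knockout replicate 1 and wild-type replicates 2 and 3 all left out they turned for Trp53 (-0.07), Bax (0.15), Sesn1 (0.29), Sesn2 (-0.04), Xpc (0.21), Ddb2 (-0.21), Gdf15 (-0.76) and Gtse1 (-0.07), and Aen was just below 0 (-0.00), in a fit with fewer samples. Leaving out 1 library turned the sign of 9 members, whose values then ran from -0.51 to 0.66 for Bax, -0.17 to 0.41 for Glb1, -0.08 to 0.44 for Trp53, -0.14 to 0.21 for Sesn2, -0.31 to 0.14 for Rrm2b, -0.22 to 0.40 for Xpc, -0.01 to 0.17 for Ddb2, -0.48 to 1.11 for Gdf15 and -0.05 to 0.75 for Sulf2. Over these fits with 1 or 3 libraries left out, Sesn1 ran from -2.27 to 0.29 and Gtse1 from -0.07 to 0.88. No paired analysis was possible because the labels give no replicate numbers. The titles carry codes that may name embryos or litters, but their meaning is not stated, and no pairing was drawn from them. The lowest value among the members was 86 fragments (Perp, wild-type replicate 2).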

Other observations

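Genes of the secretory phenotype of senescent cells, a list of cytokines, proteases and growth factors, went with the members in sign. The log2 fold change was positive at 24 of 28 tested loci (median 1.08). edgeR called 0 at an adjusted p under 0.05. At an unadjusted p under 0.05 it gave 4 as higher and 0 as lower (1.60% and 2.27% of all loci). At 9 of the 28 loci every knockout library lay above every wild-type library, against 5.18% of all loci and 0 of the 35 members. Ereg and Igfbp5 each have a tested locus on either strand, and both Ereg loci are among the 9. DESeq2 called 1, against 0.320% of the 19059 loci to which it gave an adjusted p: Areg, a ligand of the EGF receptor (DESeq2 adjusted p = 0.0166). Areg stood at 4.74, 1.55 and 1.63 CPM in wild-type and 16.7, 8.05 and 29.2 CPM in knockout libraries. Ereg, a ligand of the same receptor, stood at 103, 40.6 and 32.0 CPM against 369.5, 148 and 142 CPM, and the collagenase gene Mmp13 at 182, 11.3 and 118 CPM against 1217, 844 and 515 CPM. The order of the knockout libraries also differed between the lists: knockout replicate 1 was highest for the secretory genes and knockout replicate 3 for the members. Macrophages also express several of these cytokines, and their part in the values was not tested.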
